A study of Mus musculus with 18 samples.

Results

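The genes described here are 34 markers of astrocytes, the glial cells that clear glutamate and potassium, supply neurons with metabolites and wrap blood vessels with their endfeet. They were taken as a named list, and each gene was read at the probe set with the highest mean over all arrays. Of the 34 genes, 32 had a probe set with a gene name here, and all 32 lay above the level filter, out of 17097 genes with a probe set and 12822 kept and tested. Glul and Mt2 had no named probe set and were not analysed here.

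Cortex and striatum, dissected together, came from 6 mice aged 6 weeks: 2 WT animals, 2 CPEB4 GT/+ animals, in which 1 copy of Cpeb4 is the GT allele as the name is written and which the design text also calls CPEB4 KO, and 2 CPEB4 KO animals. Strain, sex and the way the KO was made are not given in the sources used here, and nothing in the labels restricts the alleles to a cell type. Each animal gave 3 arrays. INPUT is unfractionated RNA, WASH is RNA released from poly(U) agarose with 25% formamide and enriched for short poly(A) tails, and ELUTED is RNA released with 90% formamide and enriched for long tails. All values are the deposited log2 RMA values, which are relative to the other genes on an array, so the total amount of RNA in a fraction was not measured.

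The length of the poly(A) tail at the end of an mRNA bears on how stable it is and how well it is translated. CPEB4 belongs to a family of proteins that bind mRNA 3′ ends and change tail length in the cytoplasm, and it is known mainly for its work in neurons and dividing cells. Astrocytes carry mRNA into fine processes near synapses and vessels, so they are a cell type in which translation away from the cell body has been studied.

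Levels of the defining astrocyte genes were read on the arrays, which cannot test the label, since bulk cortex and striatum hold astrocytes. All lay above the filter: the mean over 18 arrays was 8.33 for Aldh1l1, 10.23 for Gfap, 10.3 for Aqp4, 12.37 for Slc1a2 and 10.69 for Gja1. Slc1a3, the glutamate transporter GLAST, stood at 6.28 at the only named probe set and Gjb6 at 6.51, both nearer to the filter at 5.52 and to the highest nonspecific control mean of 5.61. Levels of different genes come from different probes and are not ranked. The tissue also held every other brain cell type, and a lower share of astrocytes and less RNA per astrocyte cannot be told apart in bulk RNA.

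Between arrays of 1 group, r across genes ran from 0.966 to 0.994, although genes are not replicates. The SD across probe sets was 1.78 to 1.90 on ELUTED, 1.96 to 2.01 on WASH and 1.89 to 1.95 on INPUT arrays. A 3′ minus 5′ control difference for Actb, an index of RNA quality, was -0.47 to -0.31 on ELUTED, -0.21 to -0.059 on WASH and -0.48 to -0.41 on INPUT arrays, so WASH stood apart in the SD and in this index. The same index for Gapdh overlapped between fractions, at -0.053 to 0.062 on ELUTED, -0.13 to 0.020 on WASH and -0.099 to -0.049 on INPUT arrays. The part of these measures in the ratios below was not tested. In INPUT the targeted gene Cpeb4 was lowest in the CPEB4 KO animals (6.77 ± 0.21, SD, n = 2), with the CPEB4 GT/+ mean at 7.16 ± 0.22 and the WT mean at 7.89 ± 0.37, although CPEB4 KO against WT did not pass the adjusted limma test (-1.12, SE 0.19, adjusted p = 0.253).

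The first question was where the astrocyte mRNAs lay between the short-tail and the long-tail fraction, taken as ELUTED minus WASH within each animal. The list did not move as a block. With limma over 12822 genes and the 6 animals, 22 of the 32 genes passed at an adjusted p under 0.05, 7 higher and 15 lower in ELUTED, against a background of 73.4% of all genes called, 24.9% higher and 48.5% lower. Before any test, 9 of the 32 lay above 0, against 38.3% of all genes. The median over the 32 genes was -0.13, beside -0.18 over all genes. In 22 of the 32 (68.8%) all 6 animals lay on the same side of 0, and so they did in 71.5% of all genes. The counts for the list are near the background, and the genes within it ranged from Fabp7 at -1.79 to Slc1a3 at 0.83.

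**Figure D1:**
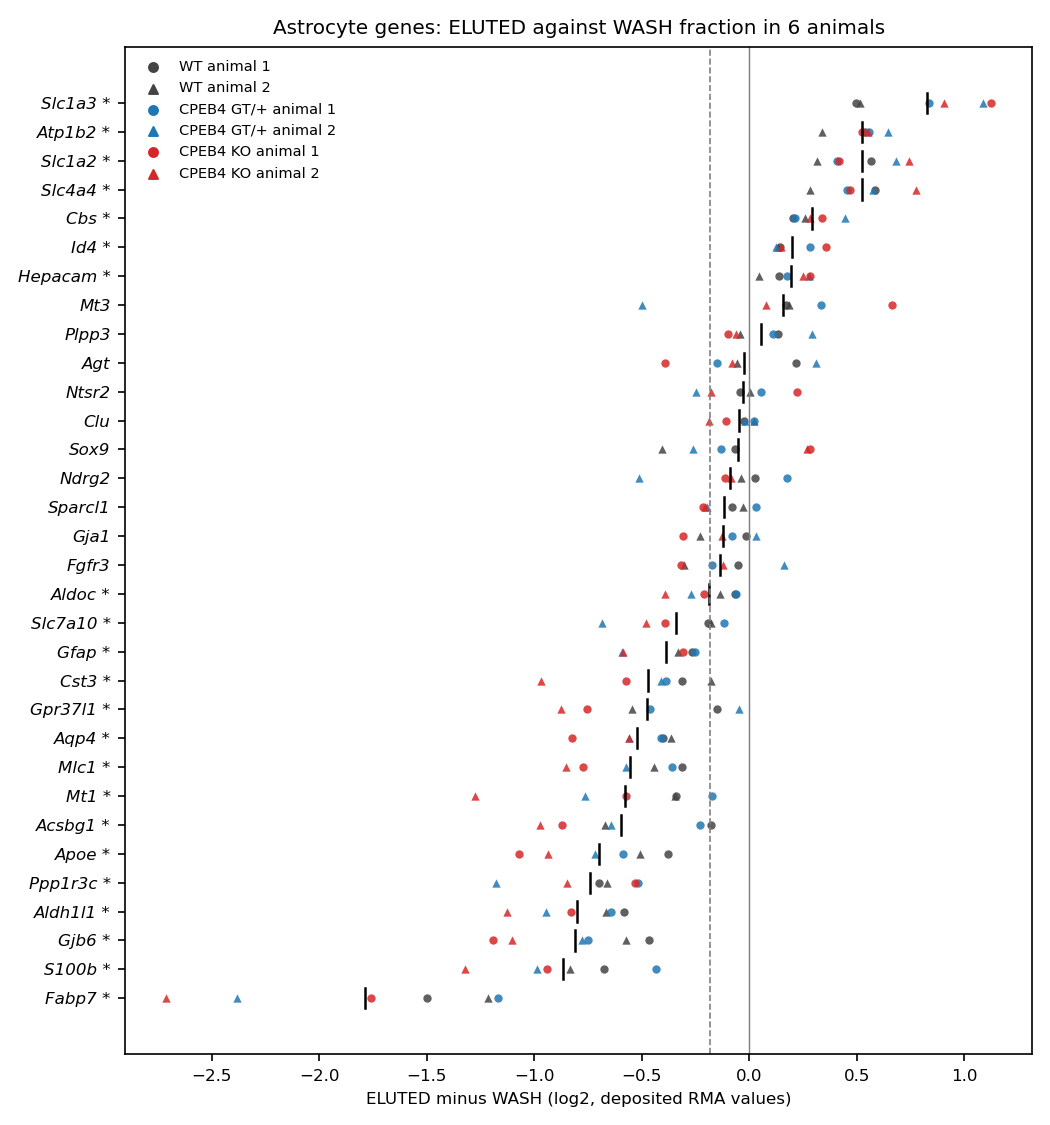
ELUTED minus WASH (log2) for the 32 astrocyte genes, each point 1 animal, coloured by genotype, with the black bar at the mean over 3 genotypes. Asterisks mark genes called at an adjusted p under 0.05, the dashed line is the median of all genes at -0.18, and the genes run from Fabp7 at -1.79 to Slc1a3 at 0.83.

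A value above or below 0 depends on how arrays are set against each other, while the order of the genes does not change when whole arrays are shifted. With arrays centred on the median of all probe sets, 4 of the 32 genes were called higher and 18 lower. With arrays centred on the median of the genes kept, a setting added after the data were seen, 16 were called higher and 8 lower. Alignment on the hybridisation controls gave 1 higher and 24 lower, and quantile normalization 11 and 11. The median of all genes lay at -0.30, 0.17, -0.67 and -0.06 in these settings, in the same order. In that order 8, 19, 4 and 17 of the 32 genes lay above 0, beside 30.7%, 61.5%, 7.54% and 45.2% of all genes. The shares of all genes called in these settings are not given here, so the counts called have no background beside them. Relative to the median of all genes, 17 of the 32 astrocyte genes lay above it in the deposited values and in each of the 3 settings that shift whole arrays, and 18 after quantile normalization. Directions below are those of the deposited values. Of the 22 calls, 7 held their direction and the threshold in each alternative that tested them and with each animal left out. These were Slc1a3 higher, and Apoe, Aldh1l1, Ppp1r3c, Acsbg1, S100b and Fabp7 lower. With the lowest 50% of genes left out, 30 of the 32 genes were tested. Slc1a3, with the lowest mean level of the 32, was not among them. In that setting 8 of the 30 lay above 0, beside 26.6% of all genes. Their median was -0.13, beside -0.33 over all genes, so the background itself changed with the level of the genes kept.

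Most genes of glutamate and ion transport were on the ELUTED side. Of the 5, with a median of 0.52, 4 were higher in ELUTED and 1 was lower. Over all genes 24.9% were called higher and 48.5% lower, and the counts of each small group below stand beside these shares. Slc1a3 had ELUTED minus WASH values of 0.50 and 0.51 in the WT animals, 0.84 and 1.09 in CPEB4 GT/+ and 1.12 and 0.91 in CPEB4 KO. All 6 animals were above 0, with the WT animals lowest, and the mean of 0.83 (SE 0.08, adjusted p = 8.01e-05) was above 98.6% of all genes. Its levels over 18 arrays stayed between 5.82 on a WASH array and 7.13 on an ELUTED array, all near the filter.

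Slc1a2, the main glutamate transporter of astrocytes (GLT), had values of 0.57 and 0.32 in WT, 0.41 and 0.68 in CPEB4 GT/+ and 0.42 and 0.75 in CPEB4 KO, with a mean of 0.52 (SE 0.08, adjusted p = 0.000746). The genotypes overlapped and all 6 animals were above 0. For Slc1a2 WASH minus INPUT was -0.47 and ELUTED minus INPUT 0.06, so its ratio lay mostly in a low WASH value. Atp1b2, the beta subunit of a sodium pump, had values of 0.54 and 0.34 in WT, 0.56 and 0.64 in CPEB4 GT/+ and 0.53 and 0.55 in CPEB4 KO, with a mean of 0.53 (SE 0.07, adjusted p = 0.000321). For Atp1b2 the difference lay in ELUTED, 0.50 above INPUT, while WASH was within 0.03 of INPUT. Slc4a4, a sodium bicarbonate cotransporter, had a mean of 0.52 (SE 0.08), with 6 of 6 animals above 0. The gene of this group that was lower was Slc7a10, a carrier of small neutral amino acids, at -0.34 (SE 0.09, adjusted p = 0.00877) with 6 of 6 animals below 0. Against INPUT in place of WASH it stood at 0.02.

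The membrane proteins of endfeet and gap junctions were divided: of 5 genes 3 were lower, 1 was higher and 1 did not pass. Gjb6, a connexin of gap junctions between astrocytes, had values of -0.47 and -0.58 in WT, -0.75 and -0.78 in CPEB4 GT/+ and -1.19 and -1.11 in CPEB4 KO, a mean of -0.81 (SE 0.07, adjusted p = 7.18e-05). The 3 genotypes did not overlap, WT being nearest to 0 and CPEB4 KO farthest. Aqp4, the water channel of the endfoot, had values of -0.40 and -0.36 in WT, -0.41 and -0.56 in CPEB4 GT/+ and -0.83 and -0.56 in CPEB4 KO, a mean of -0.52 (SE 0.07, adjusted p = 0.000419), with all 6 below 0.

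Mlc1 and Hepacam encode membrane proteins that work together at the endfoot. Mlc1 stood at -0.55 (SE 0.07, adjusted p = 0.00028) with 6 of 6 animals below 0, while Hepacam stood at 0.20 (SE 0.07, adjusted p = 0.0317) with 6 of 6 above 0. Hepacam turned to -0.30 when arrays were aligned on the hybridisation controls. Gja1, the other main astrocyte connexin, had values of -0.01 and -0.23 in WT, -0.08 and 0.03 in CPEB4 GT/+ and -0.31 and -0.13 in CPEB4 KO, and its mean of -0.12 (SE 0.07, adjusted p = 0.173) did not pass. Its animals lay on either side of 0.

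The 3 genes of the cytoskeleton and of calcium or lipid binding were all lower in ELUTED. Fabp7, a fatty acid carrier of astrocytes and their precursors, had values of -1.50 and -1.22 in WT, -1.17 and -2.38 in CPEB4 GT/+ and -1.76 and -2.71 in CPEB4 KO. Its mean of -1.79 (SE 0.17, adjusted p = 8.93e-05), an ELUTED level of 0.289 times the WASH level, lay in the lowest 0.484% of all genes. ELUTED minus INPUT was -1.53 and WASH minus INPUT 0.26, so the difference lay mostly in ELUTED. S100b, a calcium-binding protein, had values of -0.67 and -0.83 in WT, -0.43 and -0.99 in CPEB4 GT/+ and -0.94 and -1.32 in CPEB4 KO, a mean of -0.87 (SE 0.10, adjusted p = 0.000147). The CPEB4 KO animals lay below the WT animals, and the CPEB4 GT/+ animals overlapped both.

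Gfap, the intermediate filament used most often to mark astrocytes, had values of -0.27 and -0.33 in WT, -0.25 and -0.59 in CPEB4 GT/+ and -0.31 and -0.59 in CPEB4 KO, a mean of -0.39 (SE 0.08, adjusted p = 0.0029). All 6 animals were below 0, and the genotypes overlapped. Its WASH level was 0.37 above INPUT in 6 of 6 animals and its ELUTED level within 0.02 of INPUT.

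**Figure D2:**
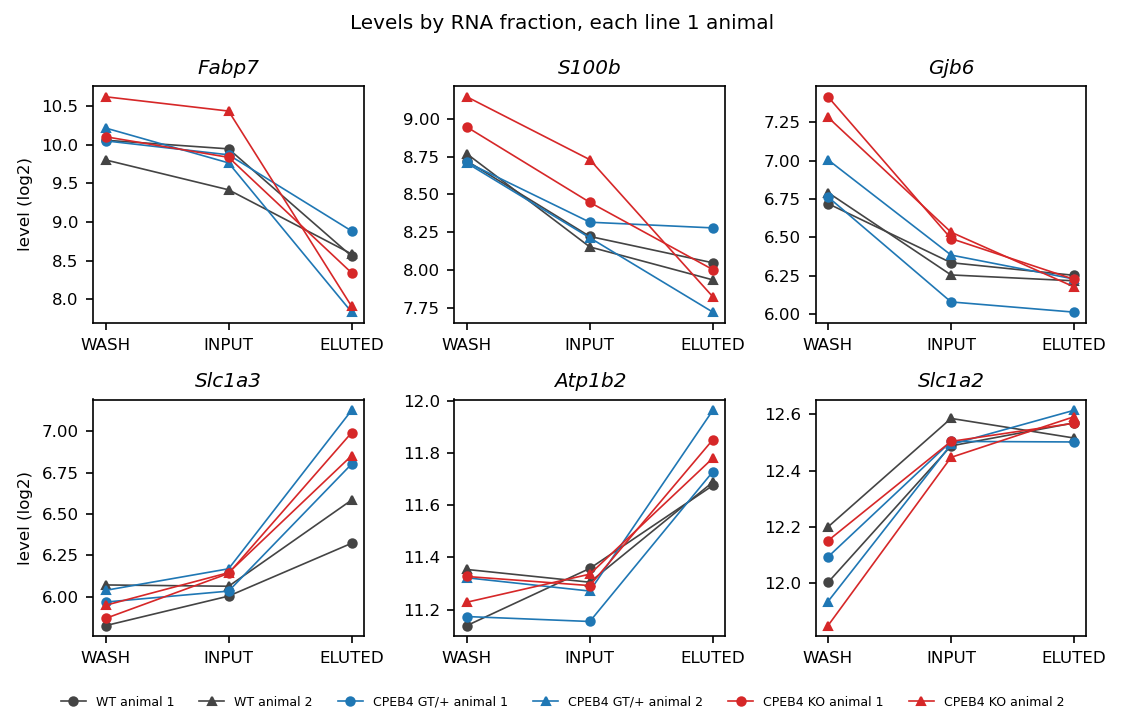
Levels (log2) in WASH, INPUT and ELUTED for the 3 astrocyte genes with the lowest and the 3 with the highest ELUTED minus WASH mean, each line 1 animal. ELUTED minus INPUT was -1.53 for Fabp7 and 0.69 for Slc1a3, whereas for Slc1a2 WASH minus INPUT was -0.47 and ELUTED lay near INPUT.

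Among 7 genes grouped under metabolism, enzymes together with Ppp1r3c and Ndrg2, 4 were lower in ELUTED, 1 was higher and 2 did not pass. Aldh1l1, an enzyme of folate metabolism and the standard pan-astrocyte marker, had values of -0.58 and -0.67 in WT, -0.64 and -0.95 in CPEB4 GT/+ and -0.83 and -1.13 in CPEB4 KO, a mean of -0.80 (SE 0.08, adjusted p = 0.000105). All 6 animals were below 0, with CPEB4 KO animal 2 lowest. Ppp1r3c, which directs a phosphatase to glycogen, stood at -0.74 (SE 0.10) and Acsbg1, which activates long fatty acids, at -0.59 (SE 0.09). Aldoc, the glycolytic aldolase of astrocytes, stood at -0.19 (adjusted p = 0.046), which is about the median of all genes. Cbs, which makes cystathionine from homocysteine, was higher at 0.29 (SE 0.07, adjusted p = 0.00674). Plpp3, a lipid phosphatase, stood at 0.06 and Ndrg2 at -0.09, and neither passed.

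Of the 5 secreted proteins 2 were lower and 3 did not pass. Apoe, the main lipid carrier made by astrocytes, stood at -0.70 (SE 0.07, adjusted p = 0.000109) and Cst3, a protease inhibitor, at -0.47 (SE 0.08), each with 6 of 6 animals below 0. Clu, an extracellular chaperone, stood at -0.05, Sparcl1, a matrix protein that acts on synapses, at -0.12 and Agt, the precursor of angiotensin, at -0.02, and none of these 3 passed.

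Of the 3 receptors only Gpr37l1 passed, at -0.47 (SE 0.09, adjusted p = 0.00176), while the neurotensin receptor Ntsr2 stood at -0.03 and the growth factor receptor Fgfr3 at -0.13. Gpr37l1 stood at 0.05 against INPUT in place of WASH. Of the transcription regulators Id4 was higher at 0.20 (SE 0.07, adjusted p = 0.0359) and Sox9, which directs glial fate, stood at -0.05 and did not pass. The metallothioneins, small proteins that bind zinc and copper, were Mt1 at -0.58 (SE 0.11, adjusted p = 0.00219) and Mt3 at 0.16, which did not pass. Mt3 ran from -0.50 in CPEB4 GT/+ animal 2 to 0.67 in CPEB4 KO animal 1.

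Several of these values held for 1 probe set of a gene and not for another. Of the 32 genes 16 had more than 1 probe set above the filter, and in 12 of the 16 (75%) every other probe set gave a lower ELUTED minus WASH value than the one used. Over all genes this was so in 2016 of 5044 (40.0%). The 3 probe sets of Gfap stood at -0.39, -0.53 and -1.35. For Gja1 the probe set used stood at -0.12 and the other 4 between -0.72 and -0.46, with 6 of 6 animals below 0 at each of the 4. Aldoc stood at -0.19 at the probe set used and -0.65 at the other, and Fgfr3 at -0.13 and -0.41. Clu stood at -0.05 at the probe set used and at -0.08 and -0.39 at the others. At the lowest probe set of each of these genes 6 of 6 animals were below 0. Slc4a4 stood at 0.52 at the probe set used and at 0.13 and 0.61 at the others above the filter.

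In 4 of the 16 genes (25%, against 40.6% of all genes) another probe set had the opposite sign. Id4 stood at 0.20 at the probe set used and at -0.41 and -0.60 at the other 2, and Cbs at 0.29 and -0.43. Mt1 stood at -0.58 at the probe set used and at 0.03 at the other, whose mean level of 6.38 was far lower. Aqp4 was alike at its 3 probe sets, at -0.52, -0.55 and -0.61, and the probe sets of Slc1a2 lay within 0.034, of Atp1b2 within 0.015 and of S100b within 0.048 of each other. Which transcript ends these probe sets read was not tested. With the mean of all probe sets of a gene in place of 1, 5 genes were called higher and 19 lower, and Id4 and Cbs turned to -0.27 and -0.07. In that setting 7 of the 32 genes lay above 0, beside 39.2% of all genes, and the share of all genes called is not given here.

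**Figure D3:**
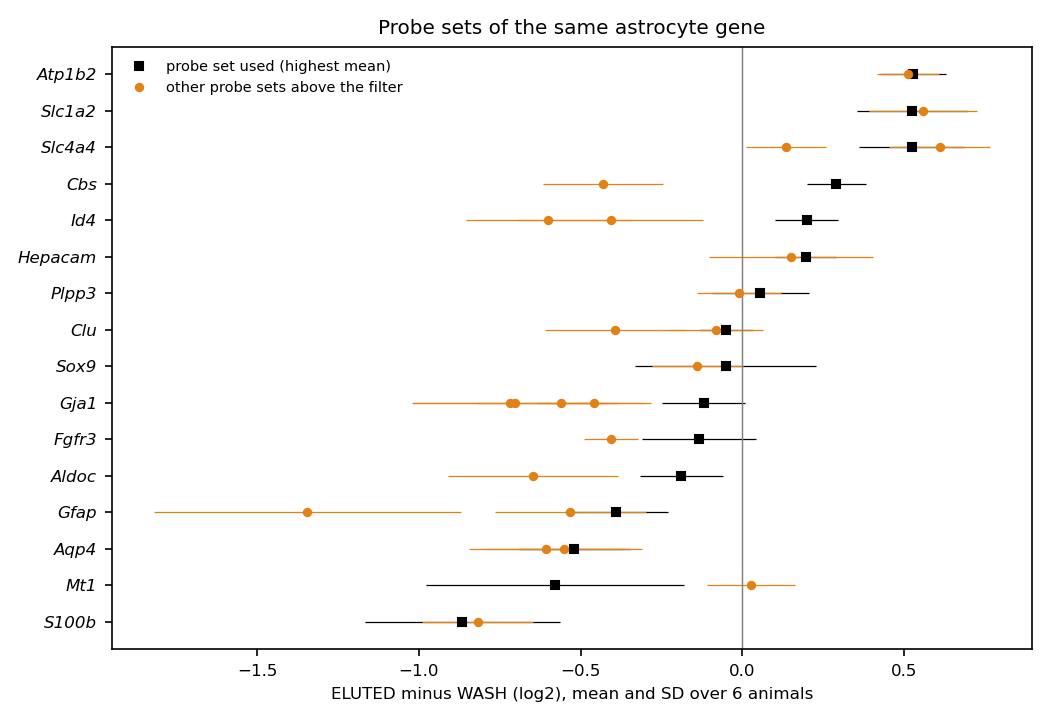
ELUTED minus WASH (log2, mean and SD over 6 animals) at each probe set above the filter, for the 16 astrocyte genes with more than 1. Black squares are the probe sets used and orange circles the others; those of Gja1, Id4, Cbs and Gfap spread widely, while those of Aqp4, Slc1a2 and Atp1b2 lie together.

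The lists that follow stand beside a median of -0.18 over all genes, of which 24.9% were called higher and 48.5% lower. Other astrocyte genes, from a second list of 57 of which 50 were kept, had a median of -0.38, with 4 called higher and 30 lower in ELUTED. The largest values were those of Papss2 (0.51) and Kcnj10, the potassium channel of astrocytes (0.48), on the higher side and Gstm5 (-1.57) and Slc15a2, a peptide carrier (-1.33), on the lower. Of 34 genes of reactive astrocytes 20 were kept, 3 higher and 10 lower, with a median of -0.20, from Timp1 (0.99) and Clcf1 (0.63) to Srgn (-1.15) and Tm4sf1 (-1.26). Among markers of other cells, the median of neuron markers stood at -0.25 (4 higher and 11 lower of 22), oligodendrocyte markers at -0.32 (0 and 12 of 14), oligodendrocyte precursor markers at -0.08 (1 and 3 of 9), microglia markers at -0.70 (2 and 11 of 14), endothelial and mural markers at -0.38 (1 and 11 of 15), ependymal, choroid plexus and meningeal markers at -0.11 (3 and 5 of 13) and blood markers at 0.04 (1 and 1 of 3).

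The second question was whether the astrocyte genes differed between genotypes in total RNA (INPUT). No astrocyte gene passed the adjusted limma test in any of the 3 comparisons, and none of the 12822 genes did (0% called in each). At an unadjusted p under 0.05 there were 4 astrocyte genes in CPEB4 KO against WT, where 10.9% of all genes were, 1 in CPEB4 GT/+ against WT (3.42%) and 7 in CPEB4 KO against CPEB4 GT/+ (8.13%), all 7 higher in CPEB4 KO. With 2 animals in each genotype an exact permutation test has 0.333 as its smallest p, and a difference that did not pass is not shown to be absent.

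As a description, the values lay highest in CPEB4 KO and lowest in CPEB4 GT/+. The mean INPUT level over the 32 genes was 9.77 in each of the WT animals, 9.67 and 9.71 in CPEB4 GT/+ and 9.95 and 9.85 in CPEB4 KO, with no overlap between genotypes. Over all genes it was 7.91 to 7.92, 7.91 to 7.93 and 7.95 to 7.98. In CPEB4 KO against CPEB4 GT/+, 29 of the 32 genes lay above 0 (56.2% of all genes did), with a median of 0.16 beside 0.02 over all genes. The animals did not overlap in 21 of these 32 genes (38.1% of all genes), of which 20 were higher in CPEB4 KO (22.8%) and 1, Mlc1, was lower (15.2%). Against WT the numbers were 24 of 32 above 0 (57.2%), a median of 0.11 beside 0.03, and 15 genes without overlap (43.1%), 12 higher (24.7%) and 3 lower (18.4%), the 3 being Mlc1, Cst3 and Mt3. In CPEB4 GT/+ against WT 5 of 32 lay above 0 (51.8%), with a median of -0.06 beside 0.00, and 11 had no overlap (31.9%), 1 higher (16.9%), Id4, and 10 lower (15%). The 3 comparisons share their animals.

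The size of these shifts depended on the scaling, while the place of the genes among all genes moved little. In CPEB4 KO against CPEB4 GT/+, 27 of the 32 astrocyte genes lay above the median of all genes in the deposited values, with both centrings, with alignment on the hybridisation controls and after quantile normalization, while the median of the 32 ranged from 0.09 to 0.31. In CPEB4 KO against WT, 22 lay above it in the deposited values, with both centrings and with that alignment, 20 after quantile normalization and 18 with the mean of 3 fractions in place of INPUT. The number above 0 and the median moved far more against WT: 18 of 32 with 0.02 when centred on the genes kept, 19 with 0.04 for the mean of 3 fractions, 20 with 0.04 after quantile normalization, 27 with 0.13 when centred on all probe sets and 31 with 0.24 when aligned on the hybridisation controls. Without CPEB4 KO animal 1 the number above the median of all genes was 16 of 32 against WT, with a median of 0.05 beside 0.06. Against CPEB4 GT/+ it was 22 of 32, with 0.12 beside 0.05. With the lowest 50% of genes left out, 22 of the 30 genes tested lay above 0 against WT, beside 67.0% of all genes. The median was then 0.095 beside 0.063 over all genes. Against CPEB4 GT/+ 27 of 30 lay above 0 in that setting (62.5%), with 0.16 beside 0.04.

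**Figure D4:**
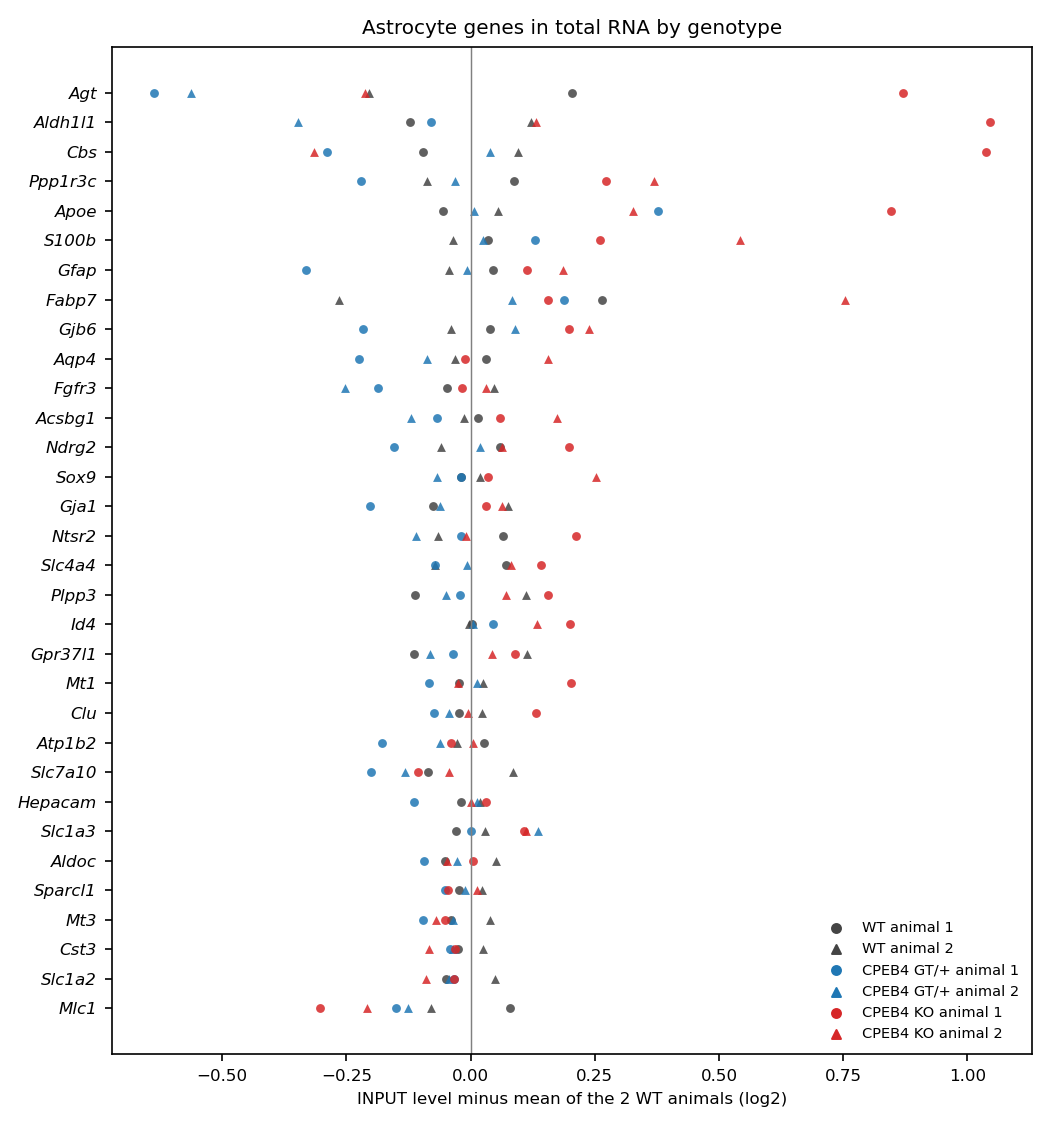
INPUT level of the 32 astrocyte genes in each animal as the difference (log2) from the mean of the 2 WT animals, ordered by CPEB4 KO minus CPEB4 GT/+. Agt, Aldh1l1 and Cbs are high in CPEB4 KO animal 1 and not in CPEB4 KO animal 2, whereas both CPEB4 KO animals are above the others for Ppp1r3c and S100b.

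The largest differences without overlap in CPEB4 KO against CPEB4 GT/+ were those of Agt, Aldh1l1 and Ppp1r3c. Agt stood in INPUT at 7.77 and 7.36 in WT, 6.92 and 6.998 in CPEB4 GT/+ and 8.43 and 7.35 in CPEB4 KO, a difference of 0.93 (SE 0.31, adjusted p = 0.554). CPEB4 KO animal 1 was high, while CPEB4 KO animal 2 lay beside the WT animals. Aldh1l1 stood at 8.09 and 8.34 in WT, 8.13 and 7.87 in CPEB4 GT/+ and 9.26 and 8.35 in CPEB4 KO, which is 0.80 above CPEB4 GT/+ (SE 0.27, adjusted p = 0.554) and 0.59 above WT (SE 0.27, adjusted p = 0.474). Here again CPEB4 KO animal 1 stood apart, and animal 2 lay beside the higher WT animal. Ppp1r3c stood at 7.51 and 7.34 in WT, 7.20 and 7.39 in CPEB4 GT/+ and 7.70 and 7.79 in CPEB4 KO, a difference from CPEB4 GT/+ of 0.45 (SE 0.11, adjusted p = 0.469), with both CPEB4 KO animals above the others.

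Cbs, chosen after its values were seen, shared the pattern of Agt and Aldh1l1: its INPUT level was 9.56 and 9.75 in WT, 9.37 and 9.70 in CPEB4 GT/+ and 10.69 in CPEB4 KO animal 1 against 9.34 in animal 2. Without CPEB4 KO animal 2, 1 CPEB4 KO animal is left. The differences from WT were then 0.85 for Apoe, 0.87 for Agt, 1.05 for Aldh1l1 and 1.04 for Cbs, beside a median of -0.008 over all genes. Those from CPEB4 GT/+ were 1.47 for Agt, 1.26 for Aldh1l1 and 1.16 for Cbs, beside -0.013. These genes were picked by their values in this setting, and the CPEB4 KO side of each difference is animal 1 alone. With arrays aligned on the hybridisation controls Apoe passed the adjusted test against WT (0.72) and Agt and Aldh1l1 against CPEB4 GT/+ (1.09 and 0.96). In that setting 84.8% of all genes lay above 0 against WT and 90.4% against CPEB4 GT/+. The share of all genes that passed there is not given here.

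Against WT the named genes beside Aldh1l1 were Apoe and S100b. The INPUT level of Apoe was 8.81 and 8.92 in WT, 9.24 and 8.87 in CPEB4 GT/+ and 9.71 and 9.19 in CPEB4 KO, a difference from WT of 0.59 (SE 0.19, adjusted p = 0.404). S100b stood at 8.22 and 8.15 in WT, 8.32 and 8.21 in CPEB4 GT/+ and 8.45 and 8.73 in CPEB4 KO, 0.40 above WT (SE 0.12, adjusted p = 0.388), and here CPEB4 KO animal 2 was the higher. Mlc1 went the other way at -0.26 (SE 0.10), the 1 astrocyte gene below WT at an unadjusted p under 0.05.

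In CPEB4 GT/+ against WT the named genes were Agt at -0.60 (SE 0.31), Fgfr3 at -0.22 (SE 0.09) and Slc7a10 at -0.17 (SE 0.10), each with an adjusted p of 1.00. The INPUT level of Fgfr3 was 9.35 and 9.44 in WT, 9.21 and 9.14 in CPEB4 GT/+ and 9.38 and 9.43 in CPEB4 KO. That of Slc7a10 was 7.53 and 7.70 in WT, 7.42 and 7.49 in CPEB4 GT/+ and 7.51 and 7.58 in CPEB4 KO. In both genes the CPEB4 GT/+ animals lay just under the WT animals and the CPEB4 KO animals overlapped WT.

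The defining genes that were not named by size had these values. Gfap stood in INPUT at 10.17 and 10.08 in WT, 9.79 and 10.12 in CPEB4 GT/+ and 10.24 and 10.31 in CPEB4 KO, and CPEB4 KO minus WT was 0.15 (SE 0.12). Slc1a2 stood at 12.49 and 12.59 in WT, 12.50 and 12.49 in CPEB4 GT/+ and 12.50 and 12.45 in CPEB4 KO, and CPEB4 KO minus WT was -0.06 (SE 0.09). Gfap was highest in the CPEB4 KO animals without overlap, and Slc1a2 overlapped between all genotypes. Aqp4 stood at 10.43 and 10.37 in WT, 10.18 and 10.31 in CPEB4 GT/+ and 10.39 and 10.56 in CPEB4 KO. Gja1 stood at 10.68 and 10.83 in WT, 10.55 and 10.69 in CPEB4 GT/+ and 10.78 and 10.82 in CPEB4 KO. In both the CPEB4 KO animals overlapped the WT animals and lay above the CPEB4 GT/+ animals. Slc1a3 ran from 6.00 in WT animal 1 to 6.17 in CPEB4 GT/+ animal 2, a narrow range.

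In CPEB4 KO against CPEB4 GT/+ the other lists also lay mostly above 0. In CPEB4 KO minus CPEB4 GT/+, 43 of the 50 other astrocyte genes were above 0 with a median of 0.12, and 16 of the 20 reactive astrocyte genes with a median of 0.24. Oligodendrocyte markers had a median of 0.24, with 14 of 14 above 0, oligodendrocyte precursor markers 0.26 with 8 of 9, endothelial and mural markers 0.21 with 12 of 15, ependymal, choroid plexus and meningeal markers 0.24 with 12 of 13 and microglia markers 0.12 with 11 of 14. Neuron markers had a median of 0.04 with 13 of 22 above 0, and blood markers 0.05 with 2 of 3. In CPEB4 GT/+ minus WT, where 5 of the 32 astrocyte genes were above 0, the other astrocyte genes did not share that side: 31 of the 50 were above 0, with a median of 0.02. Their mean INPUT level was 8.49 to 8.57 in WT, 8.53 to 8.53 in CPEB4 GT/+ and 8.68 to 8.71 in CPEB4 KO, so CPEB4 GT/+ lay within the range of WT. Of the reactive astrocyte genes 8 of 20 were above 0 in that comparison, with a median of -0.09, and of the oligodendrocyte markers 0 of 14, with a median of -0.18.

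The mean INPUT level of the oligodendrocyte list was 9.59 to 9.59 in WT, 9.33 to 9.38 in CPEB4 GT/+ and 9.64 to 9.66 in CPEB4 KO. That of the endothelial and mural list was 7.80 to 7.85, 7.75 to 7.82 and 7.99 to 8.11, and that of the microglia list 8.32 to 8.50, 8.40 to 8.46 and 8.54 to 8.59. That of the neuron list was 10.22 to 10.26, 10.28 to 10.35 and 10.27 to 10.42. In the oligodendrocyte, vascular and microglia lists both CPEB4 KO animals lay above both CPEB4 GT/+ animals, as for the astrocyte genes, while the neuron list overlapped. The same order held over all genes, at 7.95 to 7.98 in CPEB4 KO and 7.91 to 7.93 in CPEB4 GT/+. It also held in the oligodendrocyte precursor list (7.89 to 7.93 against 7.66 to 7.74) and the ependymal, choroid plexus and meningeal list (7.66 to 7.81 against 7.02 to 7.60). So it did in the other and the reactive astrocyte lists, while the blood list overlapped. The part of tissue makeup in the astrocyte values was not tested.

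The promoters of Agt, Aldh1l1 and Ppp1r3c are shown because these 3 genes had the largest INPUT differences without overlap between CPEB4 KO and CPEB4 GT/+. Each run is the 250 bases before the gene start from RefSeq on GRCm38.p6, 5′ to 3′ on the gene's strand. Capitals mark every match, on either strand, to TATAAA (the TATA box), CCAAT (read ATTGG on the other strand), TTGGC (part of the site of NFI factors) and TTCNNNGAA (the STAT core), which do not overlap here. The Agt window lies at chr8:124569707-124569956 on the minus strand, the Aldh1l1 window at chr6:90550543-90550792 on the plus strand and the Ppp1r3c window at chr19:36736605-36736854 on the minus strand.
Agt: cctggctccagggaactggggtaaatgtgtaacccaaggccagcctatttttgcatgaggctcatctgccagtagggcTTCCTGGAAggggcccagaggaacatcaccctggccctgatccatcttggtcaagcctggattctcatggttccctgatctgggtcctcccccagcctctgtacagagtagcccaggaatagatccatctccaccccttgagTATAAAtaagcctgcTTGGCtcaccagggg
Aldh1l1: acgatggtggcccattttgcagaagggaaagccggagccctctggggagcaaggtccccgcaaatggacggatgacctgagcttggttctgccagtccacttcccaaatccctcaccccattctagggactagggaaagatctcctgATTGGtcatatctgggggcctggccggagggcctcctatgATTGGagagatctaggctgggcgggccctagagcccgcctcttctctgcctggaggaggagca
Ppp1r3c: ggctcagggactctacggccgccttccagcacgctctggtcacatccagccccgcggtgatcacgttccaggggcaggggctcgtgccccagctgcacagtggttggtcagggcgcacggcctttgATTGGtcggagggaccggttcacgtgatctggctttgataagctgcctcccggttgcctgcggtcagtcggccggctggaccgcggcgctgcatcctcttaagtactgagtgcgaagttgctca
The Agt window holds 1 TATAAA, 1 TTGGC and 1 TTCNNNGAA, the Aldh1l1 window 2 copies of CCAAT, and the Ppp1r3c window 1 copy of CCAAT. Promoters were found for 29 of the 34 genes, in 36 windows, since some genes have several starts. Those of Aqp4, Atp1b2, Sparcl1, Sox9 and Clu were not used here. Of the 36 windows 4 held TATAAA (11.1%, against 12.4% of all 32851 windows of this length), 13 held CCAAT (36.1% against 33.8%), 20 held TTGGC (55.6% against 41.5%) and 5 held TTCNNNGAA (13.9% against 7.02%). A match is a string of letters and no measure of binding.

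The third question was whether ELUTED minus WASH of the astrocyte genes differed between genotypes. None passed the adjusted limma test in the 3 comparisons, nor did any of the 12822 genes (0% called in each). At an unadjusted p under 0.05 there were 6 of 32 in CPEB4 KO against WT (6.17% of all genes), 1 in CPEB4 GT/+ against WT (0.897%) and 2 in CPEB4 KO against CPEB4 GT/+ (1.85%).

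The groups did not overlap in 23 of the 32 genes for CPEB4 KO against WT, 5 higher and 18 lower, where 51.9% of all genes did not, 20.6% higher and 31.2% lower. The median difference was -0.15 over the 32 genes and -0.04 over all genes, and 10 of 32 lay above 0 against 44% of all genes. In CPEB4 GT/+ against WT 3 were higher and 4 lower without overlap (21.8% of all genes in either direction, 11.2% higher and 10.6% lower), 14 of 32 lay above 0 (43.9%) and the median was -0.02 beside -0.03. In CPEB4 KO against CPEB4 GT/+ 1 was higher and 12 lower without overlap (21.6%, 9.74% higher and 11.8% lower), 10 of 32 lay above 0 (44.1%) and the median was -0.14 beside -0.03. With the lowest 50% of genes left out, 9 of 30 lay above 0 there (40.9%), with a median of -0.14 beside -0.05.

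The genes named by size in CPEB4 KO against WT were genes with a negative ratio in every animal, and the ratio was farther from 0 in CPEB4 KO. Fabp7, whose values are given above, differed by -0.88 (SE 0.42) and Gjb6 by -0.63 (SE 0.17), each with an adjusted p of 0.756. Mt1 had ratios of -0.34 and -0.35 in WT, -0.17 and -0.76 in CPEB4 GT/+ and -0.57 and -1.27 in CPEB4 KO, a difference of -0.58 (SE 0.28, adjusted p = 0.756). Its CPEB4 GT/+ animals overlapped both other genotypes.

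In CPEB4 GT/+ against WT the named genes were Slc1a3 (0.46, SE 0.19), Gjb6 (-0.24, SE 0.17) and Apoe (-0.21, SE 0.18). Apoe had ratios of -0.38 and -0.51 in WT, -0.58 and -0.72 in CPEB4 GT/+ and -1.07 and -0.94 in CPEB4 KO, in the order of the genotypes without overlap. The adjusted p was 1.00 for each of the 3.

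In CPEB4 KO against CPEB4 GT/+ the named genes were Gpr37l1, Acsbg1 and Sox9, each with an adjusted p of 1.00. Gpr37l1 had ratios of -0.15 and -0.55 in WT, -0.46 and -0.05 in CPEB4 GT/+ and -0.76 and -0.87 in CPEB4 KO, a difference of -0.56 (SE 0.22). Acsbg1 had ratios of -0.18 and -0.67 in WT, -0.23 and -0.65 in CPEB4 GT/+ and -0.87 and -0.97 in CPEB4 KO, a difference of -0.49 (SE 0.23). In both genes the CPEB4 KO animals lay below the other 4. Sox9 had ratios of -0.07 and -0.40 in WT, -0.13 and -0.26 in CPEB4 GT/+ and 0.28 and 0.27 in CPEB4 KO, a difference of 0.47 (SE 0.19), with the CPEB4 KO animals above 0 and the other 4 below. This was so at 1 probe set only: the other Sox9 probe set above the filter was below 0 in all 6 animals, at -0.17 and -0.09 in CPEB4 KO against -0.03 and -0.05 in CPEB4 GT/+, the opposite order.

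The spread of ELUTED minus WASH across all genes moved with these differences. The SD over all 12822 genes was 0.48 and 0.41 in the WT animals, 0.41 and 0.79 in CPEB4 GT/+ and 0.60 and 0.76 in CPEB4 KO, and over the 32 astrocyte genes 0.42 and 0.39, 0.42 and 0.67, and 0.62 and 0.75. The fractions were farther apart across all genes in both CPEB4 KO animals and in CPEB4 GT/+ animal 2 than in the other 3 animals. Each animal's ratios were also scaled to the same SD, a setting added after the data were seen. The median of the 32 genes in CPEB4 KO against WT was then -0.08 beside 0.02 over all genes, and 10 of 32 lay above 0 (53.65% of all genes). Of the 32 genes 0 passed the adjusted limma test and 1 had an unadjusted p under 0.05, a count whose share over all genes is not given here. In that setting CPEB4 KO against CPEB4 GT/+ had 6 of 32 above 0 (48.1% of all genes) and a median of -0.13 beside -0.01, and CPEB4 GT/+ against WT had 19 of 32 above 0 (55.9%) and a median of 0.02 beside 0.03.

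**Figure D5:**
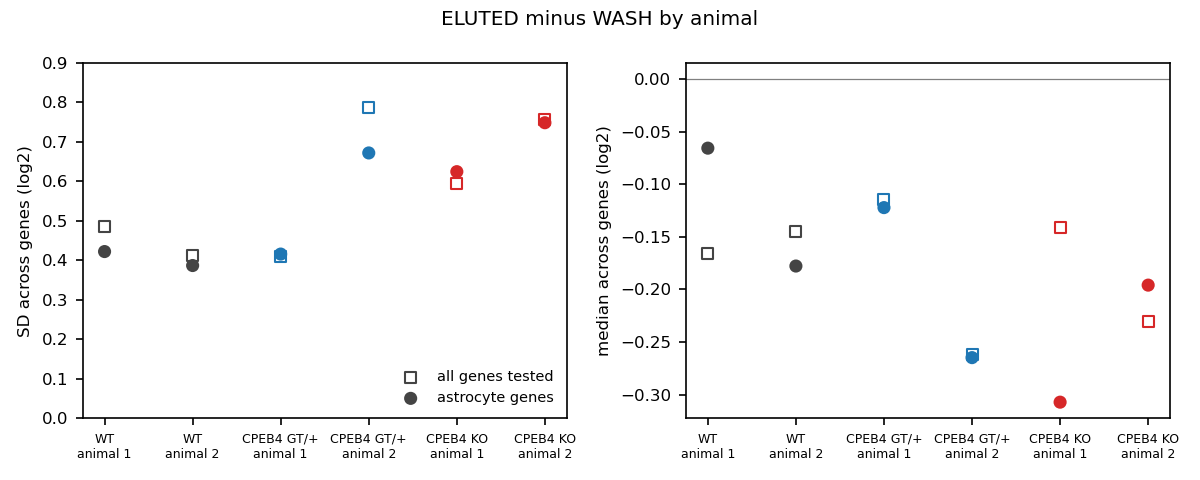
SD (left) and median (right) of ELUTED minus WASH (log2) across all genes tested (open squares) and across the 32 astrocyte genes (filled circles) in each animal. The SD is 0.39 to 0.48 in the WT animals and CPEB4 GT/+ animal 1 and 0.60 to 0.79 in the other 3 animals.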

How the data were processed

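RMA is the tool given in the submitters' processing notes, without a version, and the authors deposited its log2 values. Before labelling, 5 ng of RNA went through 21 cycles of amplification, per the labels' protocols. The 3 fractions of an animal were joined by the number in the sample titles. Of 45141 probe sets, 28898 carried 1 gene symbol in the platform annotation and were used, and 551 with several and 15692 with none were left out. Each gene was read at the probe set with the highest mean over 18 arrays, and the lowest 25% of 17097 genes were left out (filter at 5.52). Linear models with genotype means were fitted to all 12822 genes with limma 3.58.1 (lmFit, contrasts.fit, eBayes) in R 4.3.3, with 6 animals sharing 1 spread and 3 residual degrees of freedom. Tests were two-sided, with Benjamini-Hochberg adjustment over all genes and calls at an adjusted p under 0.05. There were 7 comparisons. The fits were tested on simulated data. The number of arrays limits the precision. Nothing in the labels says more of how the animals were chosen. The p-values set each difference against the spread between these animals, which eBayes draws toward a spread shared by all genes.

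The members, the 9 other lists and the tests were chosen with earlier results of these data known. All 32 measured members are named. Values in every animal are given for Aldh1l1, Gfap, Aqp4, Slc1a2, Slc1a3 and Gja1, for the 3 highest and 3 lowest ELUTED minus WASH means and, per genotype comparison, for up to 3 members with the largest difference without overlap; of the other astrocyte and reactive astrocyte genes up to 2 called in each direction are named. The labels' text calls the arrays PrimeView, whereas PM in the probe set names points to a different design, and the deposited names were kept. Replicate numbers were not used to pair animals across genotypes. The deviations of same-numbered animals correlated at -0.08 to -0.01 in INPUT and at -0.33 to 0.51 in ELUTED minus WASH. The 0.51 was that of CPEB4 GT/+ with CPEB4 KO. With 2 animals per genotype these values cannot settle whether same-numbered animals were handled together. Within an animal, ELUTED and WASH deviations correlated at 0.26, -0.12 and 0.10 in the 3 genotypes. Alternatives were the scaling of arrays, the filter, the probe set rule, the trend in eBayes, the denominator, the mean of 3 fractions, the replicate block and each animal left out.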

Additional observations from a re-analysis of the deposited data

How the results depend on the processing

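In ELUTED minus WASH, the number of astrocyte genes called stayed between 16 and 25 of 32 under each alternative run, and between 19 and 23 with 1 animal left out. The shares of all genes called in these runs are not given here, so these counts have no background beside them. The number of the 32 genes above 0 was 9 in the deposited values, 19 when centred on the genes kept (added after the data were seen), 4 when aligned on the hybridisation controls, 17 after quantile normalization, 14 with INPUT as denominator and 7 with the mean of probe sets. In the same order 38.3%, 61.5%, 7.54%, 45.2%, 44.8% and 39.2% of all genes lay above 0. Among the genes that changed sign and were called in either setting, centring on the genes kept gave Slc7a10 0.015, Gja1 0.24, Clu 0.31, Sparcl1 0.24, Agt 0.33, Aldoc 0.17, Ndrg2 0.26, Ntsr2 0.32 and Sox9 0.30. Likewise the alignment gave Hepacam -0.30, Cbs -0.20, Plpp3 -0.43 and Id4 -0.29, the mean of probe sets Cbs -0.070 and Id4 -0.27, quantile normalization Ntsr2 0.21 and Sox9 0.26, and INPUT as denominator Slc7a10 0.020, Gpr37l1 0.050 and Sox9 0.20. Genes called in neither setting, such as Fgfr3 (0.22 when centred on the genes kept) and Mt3 (-0.33 when aligned), also changed sign. Shifts of whole arrays do this by their construction; for the other settings the cause was not tested. In the 6 comparisons of genotypes 0 astrocyte genes were called under each alternative, with these exceptions in INPUT: CPEB4 KO against WT with 1 under alignment on the hybridisation controls and 0 to 4 with an animal left out, and CPEB4 KO against CPEB4 GT/+ with 2 under that alignment and 0 to 3 with an animal left out, the 4 and the 3 coming without CPEB4 KO animal 2. The replicate block across genotypes left the count at 0 in all 6. A setting without a replicate block left all 32 genes as they were in ELUTED minus WASH. No fit without the pairing of fractions within animals is given here. In simulated data of 12822 genes, 76.5% of 200 genes changed by 1 on the log2 scale were called in INPUT CPEB4 KO against WT and 96.5% in ELUTED minus WASH, and smaller changes were not simulated. Slc1a3 and Gjb6, near the filter, have little signal over background.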

Other observations

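In INPUT, the probe sets of some astrocyte genes gave unlike differences between genotypes. These genes were chosen after their values were seen, and the values belong to no test of the report. The probe set of Aldoc used in the comparisons lay at -0.02 in CPEB4 KO minus WT, and the other, with a mean level of 9.10, at 0.51. The 3 probe sets of Gfap lay at 0.15, 0.18 and 0.52, those of Aqp4 at 0.07, 0.34 and 0.21 and those of Cbs at 0.36 and 0.63. For Id4 they lay at 0.17, 0.14 and 0.47. In each of these genes a probe set other than the one used, with a lower mean level, gave the largest difference.

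The second probe set of Aldh1l1, with a mean level of 4.23 and so below the filter, stood at 0.26 in ELUTED minus WASH with 6 of 6 animals above 0, where the probe set used stood at -0.80 with 6 of 6 below. That level is under the highest mean of the nonspecific controls (5.61), and the difference was not tested.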
